A study of Mus musculus with 14 samples.

Results

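Rab GTPases are the family of small GTP-binding proteins that direct membrane vesicles between the compartments of a cell. They were taken from the deposited expression table by symbol, as every gene named Rab followed by a number with an optional letter, and this gave 57 of the 20377 symbols measured. Where a symbol had more than 1 transcript row, the row of highest mean level was kept. The 57 genes were compared in 3 populations of cells sorted from injured mouse liver, with closer attention to the apical and recycling members Rab25, Rab11a, Rab11b and Rab17.

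The animals were chimeric adult C57BL/6 mice in which mature hepatocytes carried a red fluorescent protein, mTomato. All of them received 0.1% DDC, a toxicant that blocks haem synthesis and provokes a ductular reaction, over 5 to 8 weeks, so no uninjured group is compared here. Hepatocytes gave 4 libraries, numbered 118, 225, 248 and 611. Cells with the ductal surface antigen MIC1-1C3, low side scatter and none of the antigens CD11b, CD26, CD31 and CD45 were divided by the marker. The mTomato-positive ones, which the labels call donor hepatocyte-derived ductal cells or oval cells, gave 5 libraries (219, 220, 225, 248 and 611). The mTomato-negative ones, called host cholangiocyte-derived ductal cells or cholangiocytes, also gave 5 libraries (118, 219, 220, 225 and 611). Origin therefore rests on the marker, and a ductal cell from an unmarked hepatocyte would be sorted as cholangiocyte-derived. Whether the numbers stand for separate mice is not in the labels, so p-values speak only of the spread among these libraries, and that spread may be technical. Values per library are given in the order of the numbers above.

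A Rab protein cycles between a GDP-bound form held in the cytosol by a chaperone and a GTP-bound form on a membrane, where it recruits effectors such as motors and tethers. Exchange factors load it with GTP, and GTPase-activating proteins of the TBC family switch it off. In polarised epithelia Rab11a and the epithelial member Rab25 run the apical recycling endosome, while Rab17 serves transcytosis, the route by which hepatocytes carry receptors and immunoglobulin A from the sinusoidal to the bile canalicular surface. Cholangiocytes line the bile ducts, carry a primary cilium on the apical surface and move the chloride channel Cftr to that surface by regulated vesicle fusion.

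The values are RPKM, read numbers scaled to transcript length and library depth, so levels of different genes are compared per length. Low values of short transcripts put the depth at roughly 17400000 to 26400000 reads per library, an approximate figure. Summed over 8 biliary markers the libraries held 619 to 1437 RPKM in hepatocytes, 16990 to 19780 in hepatocyte-derived and 20920 to 22430 in cholangiocyte-derived ductal cells. Over 8 hepatocyte markers the sums were 39900 to 58160, 3963 to 8099 and 2594 to 4075 RPKM. Hepatocyte library 118 stood apart from the other hepatocyte libraries, with a summed level of 10 macrophage markers of 1075 RPKM against 26.5 to 36.2, of 10 endothelial markers of 211 against 5.08 to 14.1, and of 10 stellate and fibroblast markers of 156 against 4.89 to 7.35. Stellate and fibroblast markers also reached 435 and 504 RPKM in cholangiocyte-derived libraries 118 and 220, against 37.1 to 87.4 in the other 3 and 10.2 to 31.0 in the hepatocyte-derived ductal libraries. Macrophage marker sums were 25.1 to 122 RPKM in hepatocyte-derived and 49.1 to 319 in cholangiocyte-derived ductal libraries. Endothelial ones were 18.4 to 50.5 and 18.6 to 126, and library 219 was lowest in each case.

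Rab25 was the member that separated the ductal populations most. It was close to absent from hepatocytes and from ductal cells that came from them, and abundant in ductal cells of cholangiocyte origin. Grhl2, a grainyhead-like transcription factor of epithelia, followed the same order of groups. A short stretch of the Rab25 promoter is shown because it holds a match to the grainyhead-like motif AACCNGTT (in capitals), searched on both strands (AACNGGTT on the other). The same stretch of Rab11a, which holds no match, is shown beside it. Both end just before the transcription start, inside a RefSeq window of 300 bases on GRCm38.p6 that runs from 250 before to 50 after it, and both lie on the minus strand, Rab25 at chr3:88548280-88548429 and Rab11a at chr9:64737757-64737906.
Rab25 promoter: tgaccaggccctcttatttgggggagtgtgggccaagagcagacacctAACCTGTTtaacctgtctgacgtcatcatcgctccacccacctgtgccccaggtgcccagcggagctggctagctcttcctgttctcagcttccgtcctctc
Rab11a promoter: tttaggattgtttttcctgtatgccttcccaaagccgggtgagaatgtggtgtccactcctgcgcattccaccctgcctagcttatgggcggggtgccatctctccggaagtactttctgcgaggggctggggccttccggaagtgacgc
The match covers bases 149 to 156 of the Rab25 window. Of 32851 promoter windows, 686 (2.09%) held the motif. The 44 Rab genes with a window had 56 windows, of which 1, that of Rab25, held it. A match is a string of letters and was not tested as a binding site.

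Rab25 (NM_016899, mm9 chr3:88345951-88352201, minus strand) stood at 1.71, 0.040, 0 and 0.040 RPKM in the hepatocyte libraries and at 1.1, 1.7, 0.44, 1.35 and 2.75 RPKM in the hepatocyte-derived ductal libraries. In the cholangiocyte-derived ductal libraries it stood at 79.6, 68.1, 74.4, 90.7 and 81.2 RPKM. Library 118, the one with the raised markers of other cell types, was the high one among the hepatocytes, and the other 3 held about 1 read or none, since 1 read was worth an estimated 0.0351 to 0.0531 RPKM. All 5 cholangiocyte-derived libraries lay far above every other library. Without library 118 the hepatocyte mean was 0.0267 RPKM. The means were 0.448 ± 0.842, 1.47 ± 0.852 and 78.8 ± 8.39 RPKM (SD, n = 4, 5 and 5).

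Hepatocyte-derived ductal cells thus held 1.86% of the Rab25 level of cholangiocyte-derived ones, a 53.7-fold gap, with a log2 difference on log2(RPKM + 1) of -5.08 ± 0.28 (SE; limma adjusted p = 5.30e-09). That scale is used for every log2 value here and understates changes of low genes. Against hepatocytes, cholangiocyte-derived ductal cells differed by 5.92 ± 0.29 (SE; limma adjusted p = 1.47e-10). Hepatocyte-derived ductal cells were called higher than hepatocytes by 0.85 ± 0.29 (SE; limma adjusted p = 0.0162), but their libraries overlapped with hepatocyte library 118. That call was lost without hepatocyte library 225, 248 or 611 (adjusted p = 0.0514, 0.0545 and 0.0514), with a pseudocount of 5 (0.0542), after rescaling by median ratios (0.11) and after quantile normalization (0.702). In sorted bulk samples a smaller share of cells that express a gene and less RNA per cell cannot be told apart.

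Grhl2 stood at 0.34, 0.010, 0.040 and 0.030 RPKM in hepatocytes, 0.79, 0.84, 0.33, 0.46 and 2.58 in hepatocyte-derived and 24.7, 20.1, 26.6, 24.4 and 27.4 in cholangiocyte-derived ductal libraries. As for Rab25, library 118 was the highest hepatocyte library and library 611 the highest hepatocyte-derived ductal one. The log2 difference between the ductal populations was -3.77 ± 0.21 (SE; limma adjusted p = 7.50e-09). Ovol2, another epithelial transcription factor, was -1.78. Krt19, a keratin of bile duct cells, was highest in the same 2 libraries of those groups, with 10.4 RPKM in hepatocyte library 118 against 0.09 to 0.67 in the other 3, and 81.8 RPKM in hepatocyte-derived library 611 against 23.4 to 43.7 in the other 4. The part of these library differences in the Rab25 values was not tested.

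Rab11a, the widely expressed Rab of recycling endosomes (NM_017382, mm9 chr9:64563107-64585563, minus strand), stood at 46.6, 37.2, 36.4 and 34.6 RPKM in hepatocytes. It stood at 57.5, 55.2, 54, 55.6 and 57 RPKM in hepatocyte-derived and 57, 62.8, 54, 65.9 and 50.7 RPKM in cholangiocyte-derived ductal libraries. Every ductal library exceeded every hepatocyte library, and the ductal populations overlapped. The differences from hepatocytes were 0.53 ± 0.094 (SE; limma adjusted p = 0.000116) and 0.58 ± 0.094 (SE; limma adjusted p = 4.52e-05), and both turned to lower calls, -0.26 and -0.25, once libraries were rescaled by median ratios. Between the ductal populations the difference was -0.049 ± 0.089 (SE; limma adjusted p = 0.715), which did not pass the test.

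Rab11b (NM_008997, mm9 chr17:33879429-33897431, minus strand), a close relative of Rab11a, rose in both ductal populations and did so under every setting run. Its levels were 3.4, 3.96, 3.79 and 3.41 RPKM in hepatocytes, 10.1, 9.27, 11.8, 10.2 and 11.5 RPKM in hepatocyte-derived ductal cells and 9.88, 10.4, 9.92, 12.2 and 11.4 RPKM in cholangiocyte-derived ductal cells. The lowest ductal library was more than any hepatocyte library. The mean was 2.9-fold the hepatocyte level in hepatocyte-derived ductal cells, with a log2 difference of 1.31 ± 0.088 (SE; limma adjusted p = 5.13e-09). For cholangiocyte-derived ductal cells it was 2.96-fold, with 1.34 ± 0.088 (SE; limma adjusted p = 2.55e-09). The ductal populations differed by -0.025 ± 0.083 (SE; limma adjusted p = 0.847).

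Rab17, which serves transcytosis and apical sorting (NM_001159725, mm9 chr1:92854710-92864244, minus strand), was the 1 apical member that fell in the values as deposited. Hepatocytes held 27.7, 24.8, 23.8 and 21.3 RPKM, hepatocyte-derived ductal cells 18.9, 18.7, 16.9, 17.1 and 14 RPKM and cholangiocyte-derived ductal cells 17.2, 18.1, 16.6, 17.3 and 14.3 RPKM. The lowest hepatocyte library, 611, lay above every ductal library, and library 611 was the lowest in all 3 groups. The mean was 70.1% of the hepatocyte level in hepatocyte-derived ductal cells (-0.49 ± 0.10 SE, limma adjusted p = 0.000386) and 68.4% in cholangiocyte-derived ductal cells (-0.52 ± 0.10 SE, limma adjusted p = 0.000208). Both calls remained under every setting run. The polymeric immunoglobulin receptor Pigr, a cargo of the transcytotic route, was likewise lower, at 535 ± 129 RPKM in hepatocytes, 58.5 ± 14.7 in hepatocyte-derived and 32.1 ± 11.2 in cholangiocyte-derived ductal cells (SD), with log2 differences from hepatocytes of -3.18 and -4.06.

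**Figure D1:**
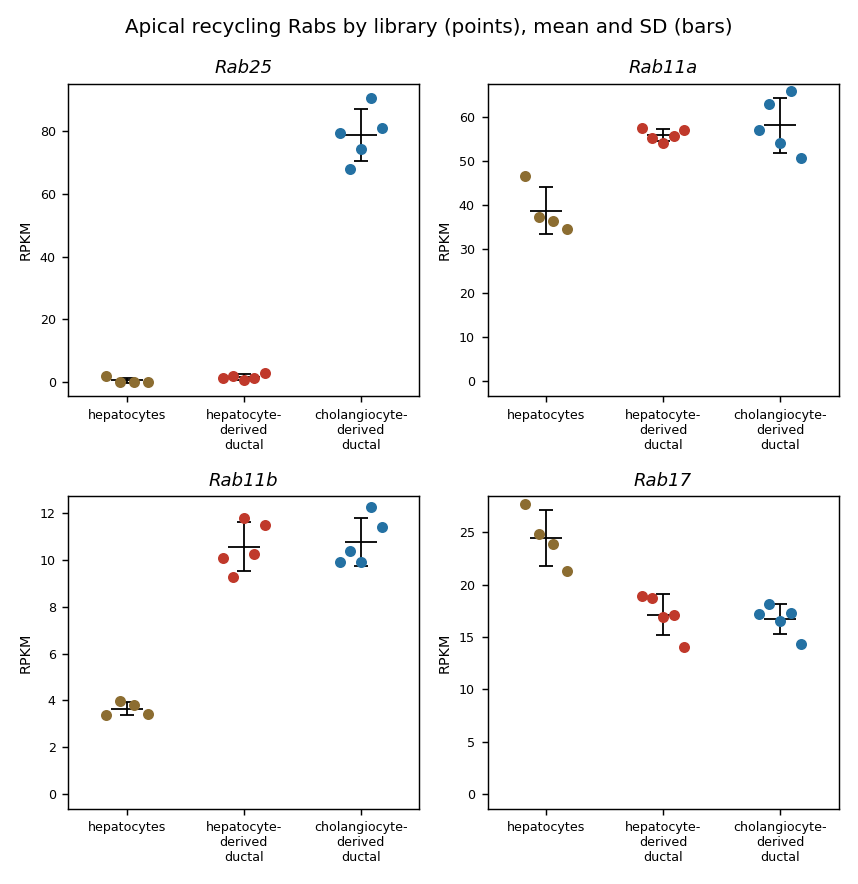
RPKM of Rab25, Rab11a, Rab11b and Rab17 in each library (points, in order of library number), with the group mean and SD as bars and linear axes that include 0. Rab25 lies between 68.1 and 90.7 RPKM in the 5 cholangiocyte-derived ductal libraries and at 2.75 RPKM or less in all others, Rab11a and Rab11b are higher in both ductal groups, and Rab17 is lower in both.

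Of the 57 Rab genes, 48 reached 1 RPKM in at least 4 libraries, as did 12638 genes in all, and were tested. In hepatocyte-derived ductal cells against hepatocytes, 36 of the 48 were called higher (66.2% of all tested genes were) and 5 lower (14.8% of all). For cholangiocyte-derived ductal cells the counts were 34 higher (67.1% of all) and 7 lower (17.4% of all). The shares of Rab genes, 75.0% and 70.8% higher, lay near those of all genes, and are no result about the family. The median log2 difference was 0.64 over the tested Rab genes and 0.67 over all genes for hepatocyte-derived ductal cells, and 0.76 over both for cholangiocyte-derived ones. Counting changes of at least 2-fold on log2(RPKM + 1) left 15 higher and 0 lower in the first comparison (34.0% and 7.45% of all genes). In the second it left 18 higher and 1 lower (40.0% and 9.69%). By the ratio of mean RPKM more called members passed 2-fold. Examples were Rab27a (2.76-fold higher) in the first comparison, and Rab30 (43.6% of the hepatocyte level) and Rab4a (48.5%) in the second.

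Most of these rises depended on how libraries were scaled. Rescaling by median ratios brought the median of all genes to 0.01 and 0.05 in the 2 comparisons, and 46 Rab genes then passed the filter. Of these, 17 rose and 22 fell in hepatocyte-derived ductal cells, against 37.2% and 36.8% of all genes. In cholangiocyte-derived ductal cells 18 were then higher and 22 lower, against 40.3% and 38.4% of all. Quantile normalization gave 21 higher and 13 lower in the first comparison, against 36.4% and 32.7% of all genes. In the second it gave 23 higher and 14 lower, against 38.7% and 37.7% of all. The same call under all 3 scalings was held by 14 higher members (Rab11b, Rab12, Rab13, Rab19, Rab20, Rab27b, Rab2b, Rab31, Rab32, Rab34, Rab35, Rab36, Rab3d and Rab6b) and 4 lower members (Rab17, Rab30, Rab43 and Rab9) in the hepatocyte-derived group. In the cholangiocyte-derived group it was held by 15 higher members, with Rab25 and Rab8b in and Rab2b out, and by 5 lower ones, with Rab4a in. These members held their calls in all 25 settings run. The summed level of all 57 genes was 1237 ± 112 RPKM in hepatocytes, 1653 ± 52.3 in hepatocyte-derived and 1748 ± 81.0 in cholangiocyte-derived ductal cells, and 39 to 41, 45 to 47 and 46 to 49 members reached 1 RPKM per library.

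**Figure D2:**
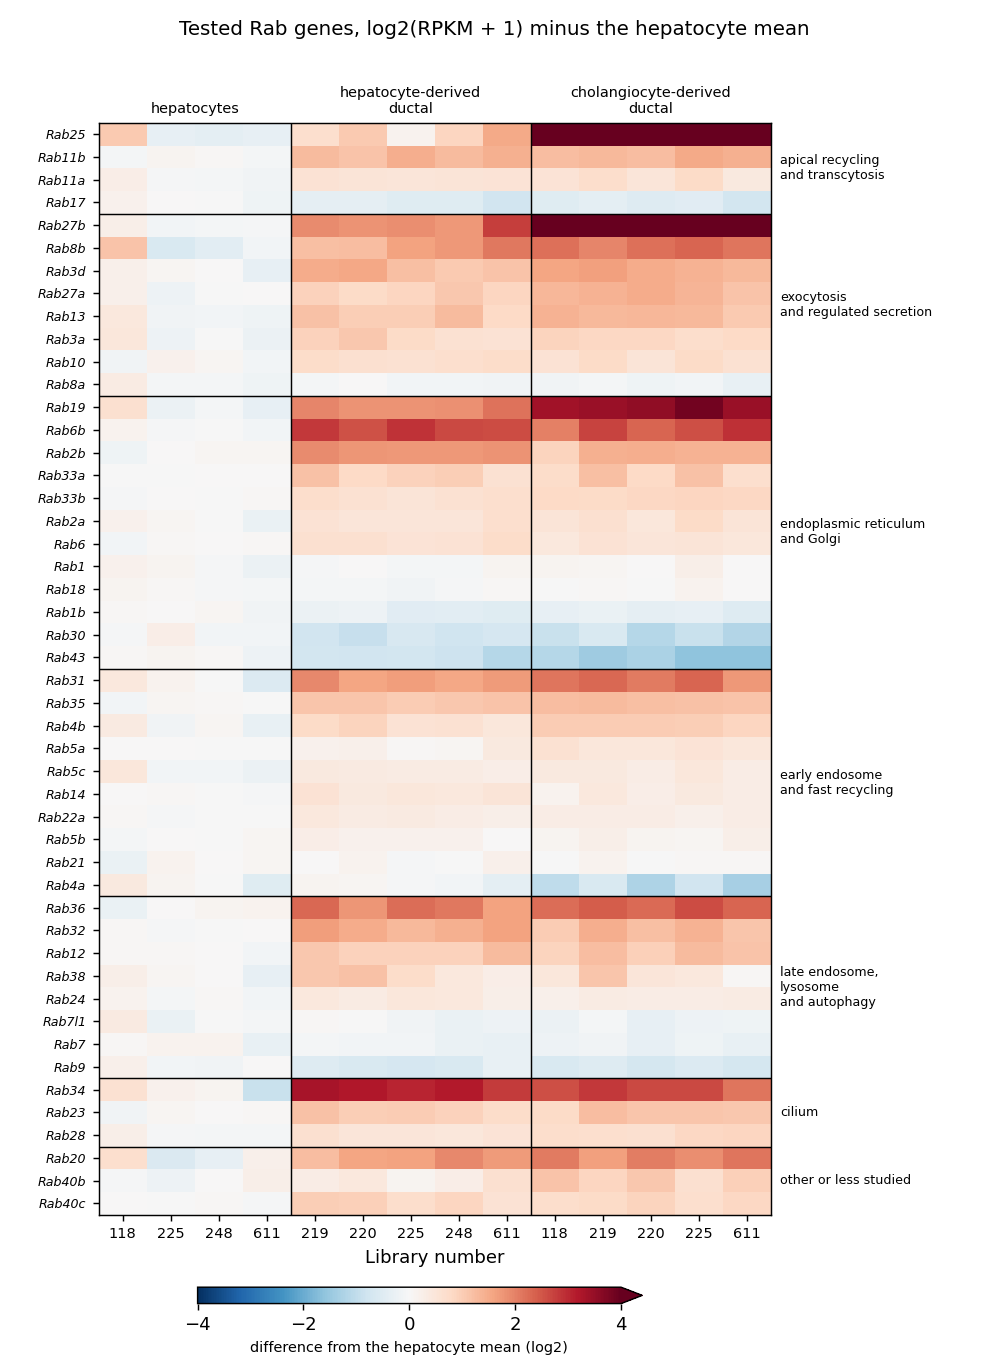
Difference of each library from the hepatocyte mean on log2(RPKM + 1) for the 48 tested Rab genes (rows, grouped by compartment) in the 14 libraries (columns), with red for higher and blue for lower and the scale ending at 4. Rab25, Rab27b and Rab19 are darkest in the cholangiocyte-derived ductal libraries, Rab34 and Rab6b are high in both ductal groups, and Rab43, Rab30, Rab9 and Rab17 are below the hepatocyte mean in all 10 ductal libraries.

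Among the Rabs of exocytosis and regulated secretion, 7 of the 8 tested were called higher in each ductal population, and 0 lower, where 66.2% and 67.1% of all genes were higher and 14.8% and 17.4% lower. Rescaling by median ratios left 5 higher and 1 lower in hepatocyte-derived and 5 higher and 2 lower in cholangiocyte-derived ductal cells, where 37.2% and 40.3% of all genes were then higher and 36.8% and 38.4% lower. These shares of all genes also stand behind the counts of the other compartments. Rab27b docks secretory granules and multivesicular bodies at the plasma membrane, and it was the strongest. Hepatocyte libraries held 0.25, 0, 0.010 and 0.040 RPKM of Rab27b (NM_030554, mm9 chr18:70138785-70213023, minus strand). Hepatocyte-derived ductal libraries held 2.98, 2.7, 2.88, 2.55 and 6.28 RPKM and cholangiocyte-derived ones 18.7, 20.1, 19.8, 23.4 and 25.3 RPKM. The 3 groups formed 3 separate steps, with library 611 the highest in both ductal groups.

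For Rab27b the log2 difference from hepatocytes was 2.01 ± 0.18 (SE; limma adjusted p = 1.23e-07) in hepatocyte-derived ductal cells and 4.38 ± 0.18 (SE; limma adjusted p = 2.56e-11) in cholangiocyte-derived ones. The hepatocyte-derived level was 16.2% of the cholangiocyte-derived level (-2.37 ± 0.17 SE, limma adjusted p = 8.80e-08). Its relative Rab27a (NM_023635, mm9 chr9:72892672-72945399, plus strand) stood at 1.22, 0.70, 0.93 and 0.95 RPKM in hepatocytes, 2.68, 2.28, 2.54, 3.12 and 2.49 RPKM in hepatocyte-derived and 3.84, 4.04, 4.42, 4.01 and 3.26 RPKM in cholangiocyte-derived ductal cells. The 3 groups of Rab27a did not overlap, but the steps were small. The differences from hepatocytes were 0.90 ± 0.10 (SE; limma adjusted p = 1.26e-06) and 1.34 ± 0.10 (SE; limma adjusted p = 1.23e-08), and both changed sign after quantile normalization (-0.18 and -0.0029, neither called). The ductal populations differed by -0.44 ± 0.095 (SE; limma adjusted p = 0.00209).

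Rab3d, a Rab of exocrine secretory granules, was 2.56-fold higher in hepatocyte-derived and 2.91-fold higher in cholangiocyte-derived ductal cells, from 11.3 ± 1.84 RPKM in hepatocytes to 28.8 ± 4.73 and 32.8 ± 3.2 RPKM (SD). Rab13, which acts at tight junctions, rose from 9.08 ± 2.08 to 19.7 ± 2.69 and 23 ± 2.08 RPKM. Rab8b rose from 1.08 ± 1.32 to 4.65 ± 1.54 and 7.33 ± 0.805 RPKM, and library 118 was high among the hepatocytes, at 3.04 RPKM against 0.22 to 0.69 in the other 3. The hepatocyte-derived call of Rab8b was lost after quantile normalization (0.43, limma adjusted p = 0.162). Rab8a, which carries vesicles to the apical membrane and the cilium, stood at 52.7, 49.1 and 46.7 RPKM and did not pass the test in any comparison (log2 -0.087, -0.16 and 0.072), although it was called lower in both ductal groups after rescaling by median ratios (-0.88 and -0.98).

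Among 12 tested Rabs of the endoplasmic reticulum and the Golgi, 7 were higher and 3 lower in each ductal population against hepatocytes (all genes 66.2% and 67.1% higher, 14.8% and 17.4% lower), and 3 were higher and 7 lower in each after rescaling by median ratios. Rab19, a Golgi-associated member linked to apical transport, had the pattern of Rab27b. Hepatocytes held 1.31, 0.28, 0.42 and 0.19 RPKM of Rab19 (NM_011226, mm9 chr6:39331427-39340378, plus strand), hepatocyte-derived ductal cells 4.81, 4.16, 4.19, 4.32 and 5.73 RPKM and cholangiocyte-derived ductal cells 14.2, 15.3, 16.4, 20.7 and 15.2 RPKM. The groups again formed 3 steps without overlap, and library 118 was the highest of the hepatocytes. The log2 differences from hepatocytes were 1.91 ± 0.17 (SE; limma adjusted p = 1.17e-07) and 3.53 ± 0.17 (SE; limma adjusted p = 1.24e-10). The hepatocyte-derived level was 28.4% of the cholangiocyte-derived one, with -1.62 ± 0.16 (SE; limma adjusted p = 2.26e-06).

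Rab6b, the relative of the Golgi Rab6 best known from neurons (NM_173781, mm9 chr9:103014404-103087600, plus strand), rose in both ductal groups. Its values were 0.21, 0.070, 0.090 and 0.020 RPKM in hepatocytes, 6.85, 5.35, 7.14, 5.82 and 5.7 RPKM in hepatocyte-derived and 3.4, 6.1, 4.48, 5.55 and 7.25 RPKM in cholangiocyte-derived ductal cells. The ductal groups overlapped, and both lay far above the hepatocytes. The differences from hepatocytes were 2.7 ± 0.15 (SE; limma adjusted p = 1.11e-09) and 2.5 ± 0.15 (SE; limma adjusted p = 1.29e-09). The ductal groups differed by 0.20 ± 0.15 (adjusted p = 0.319), which did not pass. Rab2b, a paralogue of Rab2a in traffic between endoplasmic reticulum and Golgi (NM_172601, mm9 chr14:52881434-52899070, minus strand), was instead highest in hepatocyte-derived ductal cells. It stood at 0.99, 1.24, 1.35 and 1.37 RPKM in hepatocytes, 7.35, 6.55, 6.48, 6.39 and 6.77 RPKM in hepatocyte-derived and 3.14, 5.02, 5.14, 4.9 and 4.87 RPKM in cholangiocyte-derived ductal cells. The 3 groups did not overlap, and library 118 was low in both groups that have it. The differences were 1.79 ± 0.11 (SE; limma adjusted p = 3.02e-09) and 1.32 ± 0.11 (SE; limma adjusted p = 4.79e-08) from hepatocytes, the second lost after quantile normalization (0.05, limma adjusted p = 0.765). Between the ductal groups the difference was 0.47 ± 0.11 (SE; limma adjusted p = 0.0028).

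The 3 lower members of this compartment were Rab43, Rab30 and Rab1b. Rab43, a Rab of the Golgi and of traffic from the endoplasmic reticulum (NM_133717, mm9 chr6:87738847-87759748, minus strand), stood at 55.3, 57.4, 54.4 and 45.6 RPKM in hepatocytes. It stood at 31.2, 30.9, 31.4, 29.5 and 23.4 RPKM in hepatocyte-derived and 23.3, 19.1, 21.4, 16.6 and 16.8 RPKM in cholangiocyte-derived ductal cells. The groups descended in 3 steps, although the lowest hepatocyte-derived library, 611 at 23.4 RPKM, and the highest cholangiocyte-derived one, 118 at 23.3, nearly met. Hepatocyte-derived ductal cells held 55.1% of the hepatocyte level (-0.84 ± 0.12 SE, limma adjusted p = 9.93e-06) and cholangiocyte-derived ones 36.5% (-1.42 ± 0.12 SE, limma adjusted p = 3.01e-08). Between the ductal groups the difference was 0.57 ± 0.11 (SE; limma adjusted p = 0.000802).

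Rab30, a Golgi Rab (NM_029494, mm9 chr7:99890224-99985627, plus strand), stood at 5.1, 6.5, 4.86 and 4.81 RPKM in hepatocytes, 2.67, 2.34, 3.06, 2.58 and 2.93 RPKM in hepatocyte-derived and 2.4, 3.15, 1.88, 2.38 and 1.78 RPKM in cholangiocyte-derived ductal cells. Every ductal library was below every hepatocyte library, and the ductal groups overlapped. The log2 differences were -0.76 ± 0.12 (SE; limma adjusted p = 4.40e-05) and -0.94 ± 0.12 (SE; limma adjusted p = 4.75e-06). Rab1b, which acts in export from the endoplasmic reticulum and is among the most abundant members (NM_029576, mm9 chr19:5099207-5106996, minus strand), stood at 127, 123, 129 and 110.4 RPKM in hepatocytes. Its ductal values were 105, 107, 89, 90.6 and 87.6 RPKM in hepatocyte-derived and 96.8, 101.5, 94.3, 97.9 and 84.5 RPKM in cholangiocyte-derived cells. Every ductal library of Rab1b lay below every hepatocyte library. The drop to 78.3% and 77.7% of the hepatocyte level passed the test (-0.35 ± 0.085 and -0.36 ± 0.085; limma adjusted p = 0.00142 and 0.00112) but not after quantile normalization (limma adjusted p = 0.144 and 0.2).

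For the early endosome and fast recycling, 8 of 10 tested Rabs rose and 0 fell in hepatocyte-derived ductal cells, and 7 were higher and 1 lower in cholangiocyte-derived ones (all genes 66.2% and 67.1% higher, 14.8% and 17.4% lower). Rescaling by median ratios turned this to 2 higher and 7 lower in each. The differences of Rab5a, Rab5b, Rab5c, Rab14, Rab21 and Rab22a from hepatocytes were 0.05 to 0.50 as deposited, and all 6 turned negative in both ductal populations under that rescaling. Rab31 and Rab35 rose under every setting run. Rab31, which acts between the trans-Golgi network and endosomes (NM_133685, mm9 chr17:66001066-66122092, minus strand), stood at 10.4, 8.46, 7.41 and 4.89 RPKM in hepatocytes. It reached 31.1, 24.4, 26.4, 24 and 27 RPKM in hepatocyte-derived and 37, 41.1, 34.8, 42 and 27.8 RPKM in cholangiocyte-derived ductal cells. All ductal libraries of Rab31 lay above all hepatocyte libraries, with differences of 1.68 ± 0.17 (SE; limma adjusted p = 3.21e-07) and 2.12 ± 0.17 (SE; limma adjusted p = 1.90e-08). Rab35, a Rab of endocytic recycling at the plasma membrane, went from 16.2 ± 1.07 to 35.8 ± 1.14 and 38.6 ± 1.24 RPKM (SD), with differences of 1.1 and 1.2.

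Rab4a, the Rab of fast recycling from early endosomes (NM_009003, mm9 chr8:126329896-126359191, plus strand), separated the ductal populations in the opposite sense to Rab25. Hepatocytes held 38.5, 32.1, 28.9 and 20.7 RPKM, hepatocyte-derived ductal cells 31.8, 31, 28.7, 27.4 and 22 RPKM and cholangiocyte-derived ductal cells 14, 18.9, 11.8, 17 and 11.1 RPKM. The hepatocyte-derived libraries lay within the range of the hepatocytes, and every cholangiocyte-derived library lay below both. Cholangiocyte-derived ductal cells held 48.5% of the hepatocyte level (-0.99 ± 0.18 SE, limma adjusted p = 0.000134), and hepatocyte-derived ones held 1.93 times the cholangiocyte-derived level (0.92 ± 0.17 SE, limma adjusted p = 0.000623). The hepatocyte-derived difference from hepatocytes was -0.070 ± 0.18 (SE; limma adjusted p = 0.738) and did not pass, but it was called lower after rescaling by median ratios (-0.85) and quantile normalization (-0.45). Its paralogue Rab4b went the other way, from 18.6 ± 3.92 RPKM in hepatocytes to 29.7 ± 3.64 in hepatocyte-derived and 37.1 ± 1.7 in cholangiocyte-derived ductal cells (SD), with differences of 0.66 and 0.98, of which the first turned to -0.11, uncalled, and the second was lost after rescaling by median ratios.

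Of 8 tested Rabs of the late endosome, lysosome and autophagy, 5 rose and 1 fell in hepatocyte-derived ductal cells, and 4 were higher and 2 lower in cholangiocyte-derived ones, where 66.2% and 67.1% of all genes were higher, so these shares are near or below the background. After rescaling by median ratios 3 were higher and 4 lower in each. Rab36 binds the lysosomal adaptor Rilp. Its levels (NM_029781, mm9 chr10:74499834-74516845, plus strand) were 0.77, 1.13, 1.27 and 1.31 RPKM in hepatocytes, 9.32, 6.23, 8.82, 8.09 and 5.42 RPKM in hepatocyte-derived and 8.86, 10.4, 9.22, 11.9 and 9.62 RPKM in cholangiocyte-derived ductal cells. All ductal libraries exceeded all hepatocyte libraries, with differences of 2.0 ± 0.14 (SE; limma adjusted p = 9.97e-09) and 2.38 ± 0.14 (SE; limma adjusted p = 1.04e-09). Rab32, which serves lysosome-related organelles and mitochondria (NM_026405, mm9 chr10:10264837-10278005, minus strand), was tightly grouped in hepatocytes at 33.1, 30.7, 31.5 and 32.2 RPKM. It stood at 103, 90.0, 80.2, 87.2 and 99 RPKM in hepatocyte-derived and 65.5, 89.8, 74.4, 85 and 70.2 RPKM in cholangiocyte-derived ductal cells. Ductal libraries of Rab32 again lay above all hepatocyte libraries, with differences of 1.49 ± 0.098 (SE; limma adjusted p = 4.51e-09) and 1.24 ± 0.098 (SE; limma adjusted p = 2.08e-08).

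Rab9, which returns mannose 6-phosphate receptors from late endosomes to the trans-Golgi network (NM_019773, mm9 chrX:162895191-162917622, minus strand), moved down. It stood at 45.8, 36.6, 35.7 and 39.8 RPKM in hepatocytes, 27.1, 25.5, 24.3, 25.2 and 32.1 RPKM in hepatocyte-derived and 25.5, 27.5, 23.6, 26.9 and 23.6 RPKM in cholangiocyte-derived ductal cells. No ductal library reached the lowest hepatocyte library. The differences were -0.54 ± 0.095 (SE; limma adjusted p = 9.83e-05) and -0.61 ± 0.095 (SE; limma adjusted p = 2.61e-05), and both calls remained under every setting run. Rab12, a Rab of recycling endosomes and lysosomes, rose from 26.3 ± 1.46 to 54.5 ± 6.37 and 57.9 ± 6.73 RPKM (SD), with differences of 1.02 and 1.1. Rab7, the central Rab of late endosomes, stood at 82.8, 72.9 and 70.4 RPKM. Its difference was -0.17 (adjusted p = 0.105) in hepatocyte-derived ductal cells and -0.22 (adjusted p = 0.041) in cholangiocyte-derived ones, the second lost without hepatocyte library 118, 225 or 248 or cholangiocyte-derived library 118, 220 or 611 (adjusted p = 0.0572 to 0.123).

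Rab34, which acts in ciliary membrane assembly and lysosome positioning (NM_001159482, mm9 chr11:78001929-78005695, plus strand), had the largest rise of the 48 tested members in hepatocyte-derived ductal cells on the log2 scale, as deposited. Hepatocyte libraries held 15.9, 11.7, 11 and 5.08 RPKM, hepatocyte-derived ductal libraries 108, 103, 92.3, 99.8 and 76.2 RPKM and cholangiocyte-derived ones 65.9, 77.8, 69.4, 68.1 and 48.6 RPKM. Both ductal groups lay far above the hepatocytes, and library 611 was the lowest in all 3 groups. The mean was 8.78-fold higher in hepatocyte-derived (3.1 ± 0.23 SE, limma adjusted p = 1.53e-08) and 6.04-fold higher in cholangiocyte-derived ductal cells (2.56 ± 0.23 SE, limma adjusted p = 8.39e-08). The other cilium-linked members, Rab23 and Rab28, went from 3.39 ± 0.294 to 7.62 ± 0.988 and 8.17 ± 1.03 RPKM and from 13.6 ± 1.65 to 19.9 ± 1.09 and 23.4 ± 1.63 RPKM (SD). Their calls depended on scaling, as the differences of Rab23 went to -0.010 and -0.032, uncalled, after quantile normalization, and those of Rab28 to -0.23, called lower, and -0.050, uncalled, after rescaling by median ratios.

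Rab20, which is linked to endosomes and phagosomes, rose from 16.4 ± 6.88 RPKM in hepatocytes to 49.98 ± 8.48 in hepatocyte-derived and 63.2 ± 8.43 in cholangiocyte-derived ductal cells (SD), with differences of 1.61 ± 0.21 (SE; limma adjusted p = 6.39e-06) and 1.95 ± 0.21 (SE; limma adjusted p = 7.07e-07). Library 118 was the highest hepatocyte library for Rab20, at 25.5 RPKM. Rab40b, a member that recruits a ubiquitin ligase (NM_139147, mm9 chr11:121217435-121249565, minus strand), was low throughout, at 0.17, 0.060, 0.22 and 0.42 RPKM in hepatocytes, 0.49, 0.63, 0.31, 0.44 and 0.87 RPKM in hepatocyte-derived and 1.66, 1.22, 1.56, 0.87 and 1.35 RPKM in cholangiocyte-derived ductal cells. Hepatocytes overlapped with hepatocyte-derived ductal cells, which met the cholangiocyte-derived ones at 0.87 RPKM. The cholangiocyte-derived difference from hepatocytes was 0.93 ± 0.13 (SE; limma adjusted p = 1.27e-05), and it changed sign after quantile normalization (-0.30, not called). The hepatocyte-derived difference was 0.34 ± 0.13 (SE; limma adjusted p = 0.0287), which changed sign to a lower call after quantile normalization (-0.48) and was lost without hepatocyte library 118, 225 or 248 or hepatocyte-derived library 220 or 611 (adjusted p = 0.0523 to 0.0952).

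**Figure D3:**
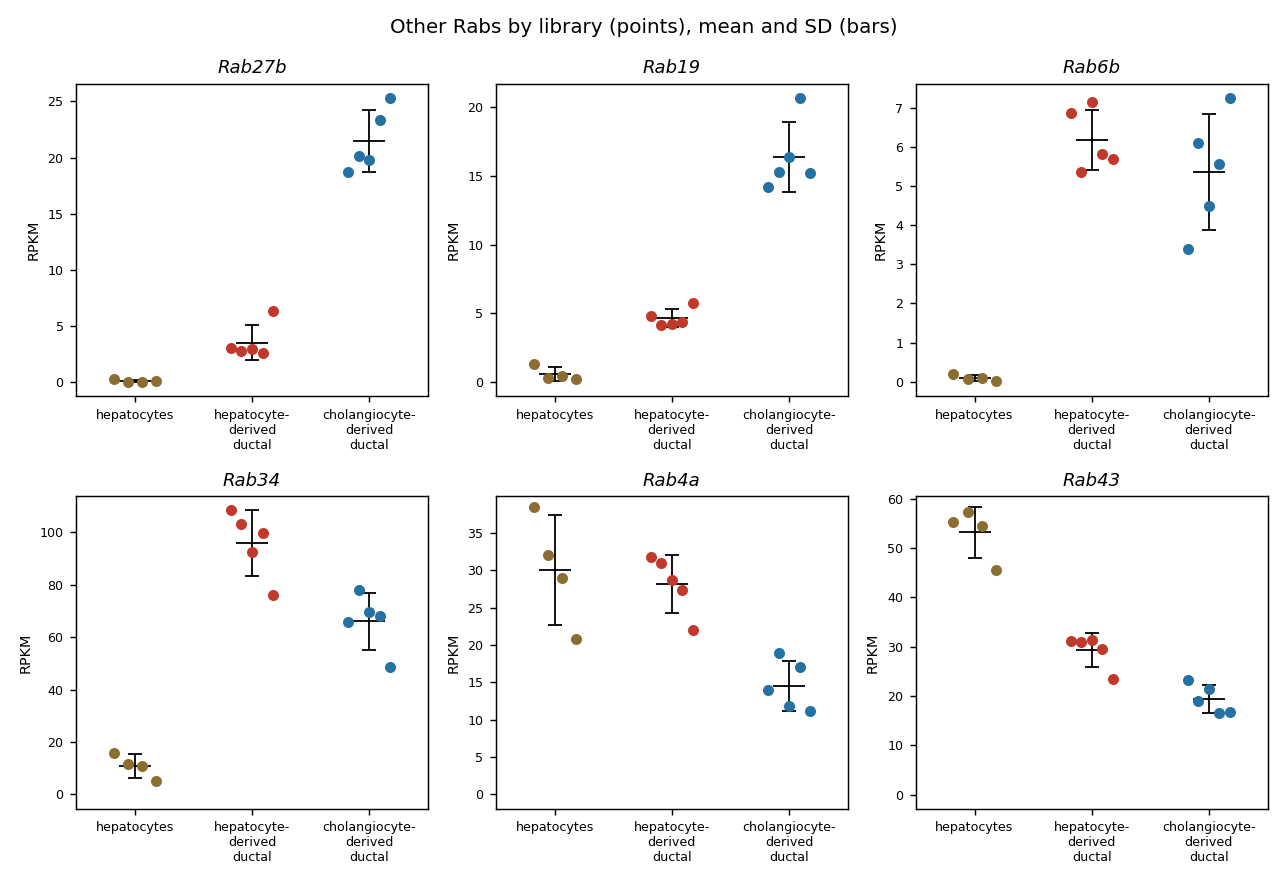
RPKM of Rab27b, Rab19, Rab6b, Rab34, Rab4a and Rab43 in each library (points, in order of library number), with the group mean and SD as bars and linear axes that include 0. Rab27b and Rab19 form 3 steps from hepatocytes to cholangiocyte-derived ductal cells, Rab6b and Rab34 are high in both ductal groups, Rab4a is low in cholangiocyte-derived ductal cells and Rab43 descends from hepatocytes.

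The direct comparison of the ductal populations asked which Rab levels differed by origin among cells of the same surface phenotype. In the labels hepatocyte or cholangiocyte origin coincides with donor or host source, so these cannot be told apart. Of 48 tested members 4 passed as higher in the hepatocyte-derived ones (15.1% of all genes were) and 11 lower (21.0% of all), while 33 did not pass. Over the tested members the median difference was -0.02, beside -0.03 over all genes. On log2(RPKM + 1), differences of at least 2-fold were 0 higher (4.09% of all genes) and 3 lower (7.75% of all). The 3 were Rab25, Rab27b and Rab19. Rab40b, at 41.1% of the cholangiocyte-derived mean RPKM, fell short of 2-fold on that scale. The higher members were Rab4a, Rab43, Rab2b and Rab32. The other lower members were Rab40b (-0.59), Rab27a (-0.44), Rab31 (-0.44), Rab36 (-0.38), Rab5a (-0.33), Rab4b (-0.32), Rab28 (-0.22) and Rab33b (-0.18). The calls of Rab2b, Rab43, Rab4a, Rab19, Rab25, Rab27b and Rab5a remained in all 25 settings run.

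Several of the small differences lost their call when single libraries were left out. Rab32 was 0.26 ± 0.093 (adjusted p = 0.0444) higher in hepatocyte-derived ductal cells, with overlapping libraries, and was not called with the library number as a block (0.25, limma adjusted p = 0.0632) or without any 1 of 10 libraries (adjusted p = 0.0501 to 0.12). The exceptions, whose removal kept the call, were hepatocyte library 118, hepatocyte-derived library 225 and cholangiocyte-derived libraries 219 and 225. Rab31 was -0.44 ± 0.16 (adjusted p = 0.0431) and Rab36 -0.38 ± 0.13 (adjusted p = 0.0421), both with overlapping libraries. Rab31 lost its call without hepatocyte library 248, hepatocyte-derived library 220, 225, 248 or 611 or cholangiocyte-derived library 118, 219, 220 or 225 (limma adjusted p = 0.0533 to 0.102). Rab36 lost it without hepatocyte library 225, hepatocyte-derived library 220, 248 or 611 or cholangiocyte-derived library 219, 220, 225 or 611 (limma adjusted p = 0.0521 to 0.105). Rab34 was 1.45-fold higher in hepatocyte-derived ductal cells without passing (0.54 ± 0.22, adjusted p = 0.0691), and it passed with the library number as a block (0.59, limma adjusted p = 0.00956), in a fit on the ductal groups alone (0.0048) and without hepatocyte library 118 or 611 (0.0307 and 0.00706). Rab33b and Rab28 were not called with the block (limma adjusted p = 0.0519 and 0.124), and the block left 4 higher and 9 lower. Rab28 also lost its call without hepatocyte-derived library 220, 225, 248 or 611 or cholangiocyte-derived library 225 or 611 (limma adjusted p = 0.0505 to 0.0937), and Rab33b without hepatocyte-derived library 225 or cholangiocyte-derived library 220, 225 or 611 (limma adjusted p = 0.0512 to 0.0721). Rab4b lost its call without hepatocyte-derived library 225, 248 or 611 or cholangiocyte-derived library 118, 219, 220 or 225 (limma adjusted p = 0.0683 to 0.0963).

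Leaving out 1 library moved the number of lower members between 6 and 12. It was 7 without hepatocyte-derived library 225, 248 or 611 or cholangiocyte-derived library 219 or 611, and 6 without cholangiocyte-derived library 220 or 225. Rescaling by median ratios gave 7 higher and 6 lower (17.1% and 18.7% of all genes). Quantile normalization gave 6 higher and 8 lower (24.3% and 19.0% of all genes). Stellate and fibroblast markers moved with this comparison. Of 9 tested ones 7 were called lower in hepatocyte-derived ductal cells and 0 higher, beside 21.0% and 15.1% of all genes. Against hepatocytes 8 of the 9 were higher and 0 lower in cholangiocyte-derived ductal cells, beside 67.1% and 17.4% of all genes. The part of these markers in the rises of Rab genes there was not tested. In cholangiocyte-derived libraries 219, 225 and 611, where those sums were 37.1 to 87.4 RPKM, Rab25 stood at 68.1, 90.7 and 81.2 RPKM, Rab27b at 20.1, 23.4 and 25.3 and Rab19 at 15.3, 20.7 and 15.2. All 3 genes kept their call without hepatocyte library 118 and cholangiocyte-derived libraries 118 and 220 together.

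**Figure D4:**
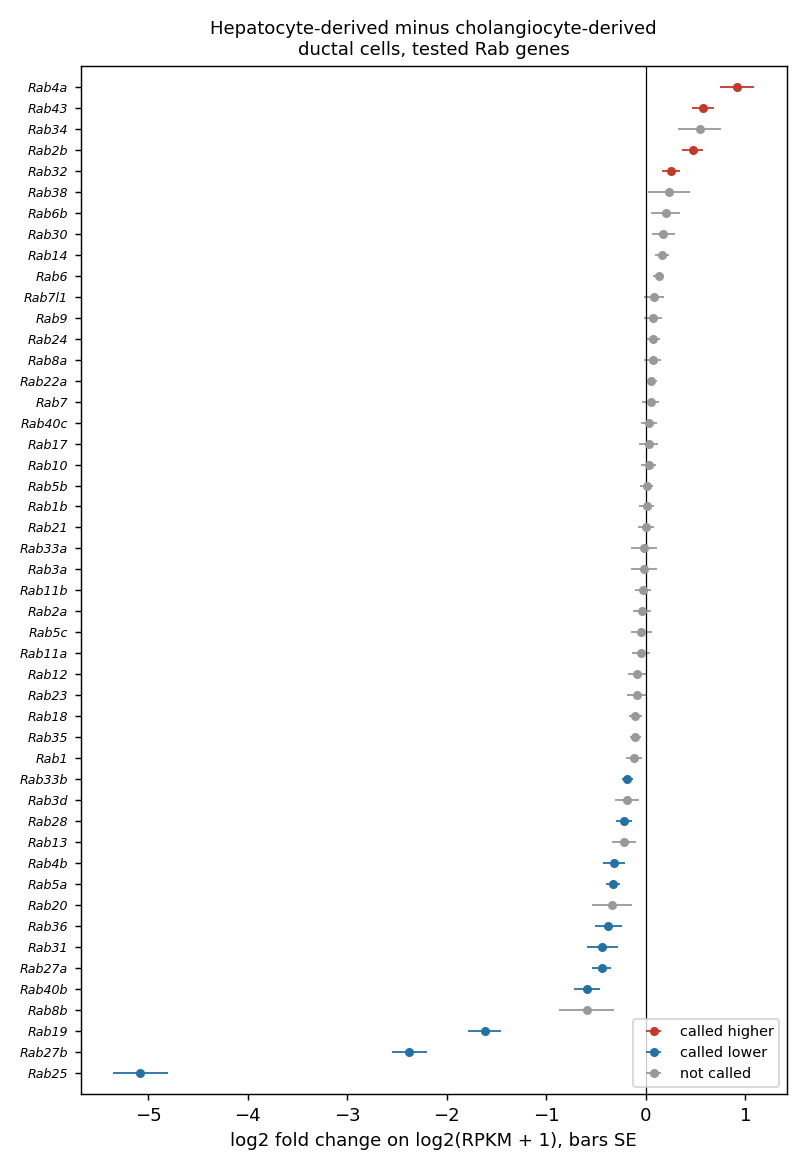
Log2 difference on log2(RPKM + 1), hepatocyte-derived minus cholangiocyte-derived ductal cells, with its SE for the 48 tested Rab genes in order of size, coloured by the call. Rab25 at -5.08, Rab27b at -2.37 and Rab19 at -1.62 lie apart from the rest, which sit between -0.60 and 0.92.

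The 9 members that were not tested were Rab15, Rab26, Rab37, Rab39, Rab39b, Rab3b, Rab3c, Rab44 and Rab9b. Rab15, known from neuronal endosomes, was listed at 0 in all 4 hepatocyte libraries and stood at 0.18, 0.12, 0.040, 0.15 and 0.28 RPKM in hepatocyte-derived and 0.77, 1.01, 0.93, 0.74 and 1.36 RPKM in cholangiocyte-derived ductal cells, with no overlap between the ductal groups. Rab26, a Rab of secretory granules, stood at 0 to 0.03, 0.07 to 0.18 and 0.46 to 0.73 RPKM in the 3 groups. The order of both is that of Rab25 and Rab27b, at low levels. Rab37 stood at 0 to 0.06, 0.19 to 0.66 and 0.12 to 0.41 RPKM, and Rab44 at 0.07 to 0.12, 0.43 to 0.98 and 0.24 to 0.58 RPKM. Rab3b was at 0.95 RPKM in hepatocyte library 118 and at 0.01 to 0.05 in the other 3, beside means of 0.206 and 0.326 RPKM in the ductal groups. Rab39, Rab39b and Rab9b had means of at most 0.146 RPKM in any group, and Rab3c was listed at 0 in all 14 libraries.

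The lists of Rab regulators, effectors and cargo are read against the shares of all genes, which against hepatocytes were 66.2% and 67.1% higher and 14.8% and 17.4% lower, and between the ductal populations 15.1% higher and 21.0% lower. Of 8 tested genes for chaperone, escort and prenylation proteins, 6 were higher in hepatocyte-derived and 5 in cholangiocyte-derived ductal cells, with 0 lower, but after rescaling by median ratios 0 were higher and 5 lower in each. Of 28 exchange factors 22 were higher and 3 lower in hepatocyte-derived and 24 higher and 3 lower in cholangiocyte-derived ductal cells (12 and 8, and 12 and 6, after rescaling by median ratios). Rin1, an exchange factor of Rab5, went from 0.14 ± 0.0337 to 4.48 ± 0.728 and 7.44 ± 0.675 RPKM. Rab3ip, also known as Rabin8, which activates Rab8 at the cilium and the apical surface, went from 13.7 ± 1.67 to 30.7 ± 2.4 and 34 ± 1.45 RPKM. Between the ductal groups 3 exchange factors were higher and 10 lower in hepatocyte-derived cells (15.1% and 21.0% of all genes), with Rin2 at -1.01 the lower and Dennd5a at 0.81 the higher example.

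Of 30 GTPase-activating proteins, 25 were higher and 1 lower in hepatocyte-derived and 23 higher and 4 lower in cholangiocyte-derived ductal cells, and this became 12 and 12, and 12 and 14, after rescaling by median ratios. Tbc1d1 went from 2.71 ± 0.744 RPKM in hepatocytes to 23 ± 3.85 and 26.6 ± 1.24 RPKM (SD). Between the ductal groups 6 were higher and 6 lower (15.1% and 21.0% of all genes). Tbc1d2, which acts on Rab7, was -1.65 ± 0.085 (SE; limma adjusted p = 2.98e-09), at 1.4 ± 0.199 RPKM in hepatocyte-derived and 6.53 ± 0.527 RPKM in cholangiocyte-derived ductal cells. Tbc1d4, a regulator of glucose transporter vesicles, was -1.15 and Tbc1d9 was -1.34.

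All 18 tested effectors of Rab11 and Rab25 and subunits of the exocyst, the tether of exocytic vesicles, were called higher in both ductal populations, with a median difference of 1.19 in hepatocyte-derived and 1.37 in cholangiocyte-derived ductal cells beside 0.67 and 0.76 over all genes. After rescaling by median ratios 13 were higher and 0 lower in hepatocyte-derived and 14 higher and 1 lower in cholangiocyte-derived ductal cells. After quantile normalization 11 were higher and 1 lower, and 13 higher and 2 lower, and Rab11fip4 turned to -0.27 in hepatocyte-derived ductal cells. The exocyst subunit Exoc6 rose from 14.4 ± 2.32 to 38.1 ± 0.729 and 42.4 ± 2.03 RPKM (SD). Between the ductal populations 4 were lower and 0 higher in hepatocyte-derived cells (21.0% and 15.1% of all genes), and the 4 were the motor Myo5c and the adaptors Rab11fip5, Rab11fip1 and Rab11fip4.

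Rab11fip5, which links Rab11 to motors, stood at 1.93, 1.13, 1.45 and 1.62 RPKM in hepatocytes, 15.9, 14, 16.5, 16.9 and 14.1 RPKM in hepatocyte-derived and 38.4, 31.4, 32.6, 34.9 and 26.4 RPKM in cholangiocyte-derived ductal cells. Myo5c, an epithelial myosin of secretory granules, stood at 0.39, 1.2, 1.3 and 0.79 RPKM in hepatocytes, 4.51, 5.43, 8.05, 8.89 and 6.15 RPKM in hepatocyte-derived and 21.6, 18.9, 25, 22.2 and 19.9 RPKM in cholangiocyte-derived ductal cells. Neither gene overlapped between any groups. The differences between the ductal populations were -1.03 ± 0.11 (SE; limma adjusted p = 3.21e-06) and -1.59 ± 0.17 (SE; limma adjusted p = 3.73e-06). Rab11fip1 was -0.74 and Rab11fip4 was -1.17.

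Of the 11 Rab3 and Rab27 effectors, 8 were tested and all 8 were higher in both ductal populations, with medians of 1.48 and 2.12. After rescaling by median ratios 6 were higher and 0 lower in hepatocyte-derived and 7 higher and 1 lower in cholangiocyte-derived ductal cells. Mlph, melanophilin, which joins Rab27 to a myosin, rose from 1.64 ± 0.183 to 29.4 ± 4.49 and 47.7 ± 4.1 RPKM (SD). Between the ductal populations 4 were lower and 0 higher in hepatocyte-derived cells (21.0% and 15.1% of all genes). Unc13d, which primes Rab27-bound granules for fusion, was the furthest apart at 1.06 ± 0.0844 against 7.55 ± 1.48 RPKM (-2.03 ± 0.12 SE, limma adjusted p = 9.11e-09). Sytl1 was -1.16 and Mlph -0.69, while Rph3al at -0.26 (adjusted p = 0.0314) lost its call without hepatocyte-derived library 219, 225 or 611 or cholangiocyte-derived library 118, 219, 220 or 611 (limma adjusted p = 0.0515 to 0.0854).

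Of 16 effectors of Rab5 and Rab7, 14 were higher and 2 lower in hepatocyte-derived and 11 higher and 2 lower in cholangiocyte-derived ductal cells, or 7 higher and 4 lower in each after rescaling by median ratios. Appl2, an endosomal adaptor of Rab5, stood at 11 ± 1.36, 23.6 ± 2.98 and 47.8 ± 5.34 RPKM (SD) and rose in steps. Osbpl1a, a sterol-binding partner of Rab7, stood at 45.7 ± 1.86, 16.7 ± 0.92 and 9.68 ± 0.828 RPKM and fell in steps, with differences from hepatocytes of -1.4 and -2.13.

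Of 12 cargo genes that these routes carry, 1 was higher and 8 lower in hepatocyte-derived and 2 were higher and 7 lower in cholangiocyte-derived ductal cells (1 and 10, and 1 and 9, after rescaling by median ratios). Of all genes 14.8% and 17.4% were lower, and 36.8% and 38.4% after that rescaling. The lower ones included hepatocyte cargo such as Pigr, the bile salt pump Abcb11, the canalicular conjugate pump Abcc2 and the asialoglycoprotein receptor subunit Asgr2. Abcb11 went from 191 ± 92 to 4.56 ± 2.09 and 3.85 ± 2.54 RPKM (SD). Abcc2 went from 211 ± 59.3 to 78 ± 12.7 and 25.5 ± 8.18 RPKM and was 1.61 ± 0.22 (SE; limma adjusted p = 4.14e-05) higher in hepatocyte-derived than in cholangiocyte-derived ductal cells. Cftr, the chloride channel of cholangiocytes, went up, with 0.64, 0, 0.020 and 0.050 RPKM in hepatocytes, 9.15, 7.64, 11.2, 12.4 and 17 RPKM in hepatocyte-derived and 50.6, 43.6, 50.6, 57.5 and 46.5 RPKM in cholangiocyte-derived ductal cells. The 3 groups of Cftr formed separate steps, and the difference between the ductal populations was -2.06 ± 0.18 (SE; limma adjusted p = 7.10e-07). Tfrc, the transferrin receptor, a cargo of Rab4 and Rab11 recycling, stood at 19.3 ± 5.78, 12.8 ± 2.98 and 32.4 ± 5.2 RPKM and was -1.29 in hepatocyte-derived against cholangiocyte-derived ductal cells. The comparisons with hepatocytes share the hepatocyte libraries, so the counts of one are not independent of those of the other.

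**Figure D5:**
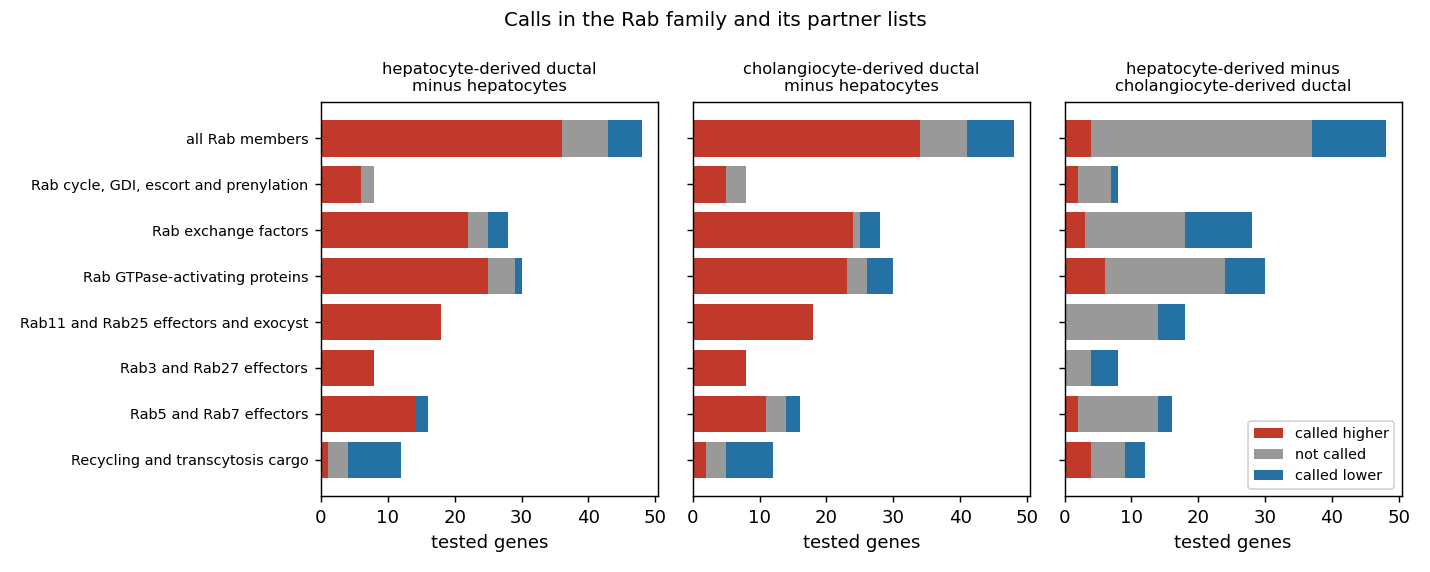
Number of tested genes called higher (red), not called (grey) and called lower (blue) in the Rab family and in 7 lists of regulators, effectors and cargo, for the 3 comparisons as deposited. The lists of Rab11 and Rab25 effectors and of Rab3 and Rab27 effectors are wholly red in both comparisons with hepatocytes and hold 4 lower genes each between the ductal populations, while the cargo list is mostly blue against hepatocytes.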

How the data were processed

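Polyadenylated RNA was sequenced without strand information (TruSeq RNA kit v2, per the labels' protocols), so reads of overlapping antisense genes cannot be told apart. The authors deposited a table of RPKM per transcript, rounded to 2 decimals, with 26005 rows. The submitters' processing notes name the mm9 genome, Bowtie 0.12.7 and CASAVA. How reads were counted, and what was done with those matching several places, is not given in the sources used here. The table holds 4 hepatocyte columns, where the design text gives 3 samples, and 2 columns numbered 220 were matched to their group only, as the remaining titles carry another number. No pair of libraries shared more than 0.437% identical values above 1 RPKM.

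From these values, log2(RPKM + 1) of the 12638 genes that reached 1 RPKM in 4 or more libraries was fitted with limma 3.58.1 (R 4.3.3), the 3 groups in 1 model with an intensity trend. Tests were two-sided, adjusted by Benjamini-Hochberg over all tested genes, and called at an adjusted p under 0.05. The Rab genes, roles, partner lists and markers were chosen with earlier results of these data known. Values per library are given for Rab25, Rab11a, Rab11b, Rab17 and, per comparison, for up to 6 members called higher and 6 lower with the largest change among those with a mean of at least 1 RPKM, and from other lists for up to 4 genes with the smallest adjusted p. Other members were named after their values were seen. Alternatives were other pseudocounts, no filter, rescaling by median ratios, quantile normalization, the mean over rows, fits on 2 groups, the library number as a block, sample weights and leaving out libraries. Same-numbered libraries deviated together between the ductal populations (r = 0.212 to 0.797 over 4 pairs), where 7 of 8 libraries correlated best with their own number. Between cholangiocyte-derived ductal cells and hepatocytes r was 0.133 to 0.512 over 3 pairs, and 5 of 6 libraries did so. This pairs most but not all of them by the data, and none by the labels. The fit was also run on simulated data, with independent libraries and no shift shared by most genes, so that run cannot speak to scaling or pairing. Plots and tables used Python 3.11.15, numpy 2.4.6, pandas 2.3.3 and matplotlib 3.10.9. Promoter windows are from RefSeq (GRCm38.p6), and gene positions are those of the deposited table (mm9). The values of 1 gene of the partner lists are not reported here.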

Additional observations from a re-analysis of the deposited data

Results flagged for a closer look

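A library far from the others of its group (Dixon's test at 95%) was found in 5 of 57 groups of values of the Rab genes given per library, and chance flags about 1 in 20 groups. Hepatocyte library 118 was far above the other hepatocyte libraries for Rab25 (1.71 RPKM) and for Rab27b (0.25 RPKM). Hepatocyte-derived ductal library 611 was far above its group for Rab27b (6.28 RPKM) and far below it for Rab43 (23.43 RPKM). Cholangiocyte-derived ductal library 118 was far below its group for Rab2b (3.14 RPKM). What sets these libraries apart was not tested.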

How the results depend on the processing

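Scaling had the largest effect, and the shares of all genes under each scaling stand with the results above. In hepatocyte-derived ductal cells against hepatocytes the 36 higher and 5 lower Rab genes became 17 and 22 after rescaling by median ratios and 21 and 13 after quantile normalization. In cholangiocyte-derived ductal cells the 34 and 7 became 18 and 22 after rescaling by median ratios, and lower members numbered 14 after quantile normalization. Between the ductal populations the 4 higher and 11 lower became 7 and 6 after rescaling by median ratios, and higher members numbered 9 with sample quality weights. Leaving out 1 library at a time gave 32 to 35 higher and 5 to 6 lower in the first comparison, 32 to 36 and 6 to 7 in the second, and 3 to 6 and 6 to 12 in the third. The cause was not tested.

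Among differences called in either fit, signs changed only under the 2 scalings, while uncalled differences near 0 also changed sign under other settings. Rescaling by median ratios changed them in hepatocyte-derived ductal cells against hepatocytes for Rab10 -0.12, Rab11a -0.26, Rab14 -0.32, Rab21 -0.72, Rab22a -0.44, Rab24 -0.41, Rab28 -0.23, Rab2a -0.25, Rab33b -0.067, Rab4b -0.11, Rab5a -0.60, Rab5b -0.61, Rab5c -0.47 and Rab6 -0.16 (log2), and in cholangiocyte-derived ones for Rab1 -0.74, Rab10 -0.18, Rab11a -0.25, Rab14 -0.52, Rab18 -0.79, Rab21 -0.76, Rab22a -0.53, Rab24 -0.52, Rab28 -0.050, Rab2a -0.25, Rab5a -0.31, Rab5b -0.65, Rab5c -0.46, Rab6 -0.33, Dennd5a -0.48 and Tfrc -0.060. Quantile normalization changed them in the first comparison for Rab1 0.16, Rab21 -0.43, Rab22a -0.17, Rab23 -0.010, Rab24 -0.085, Rab27a -0.18, Rab28 -0.097, Rab33b -0.31, Rab38 -0.22, Rab3a -0.23, Rab40b -0.48, Rab5a -0.25, Rab5b -0.42, Rab11fip4 -0.27 and Tbc1d2 -0.22, and in the second for Rab21 -0.47, Rab22a -0.28, Rab23 -0.032, Rab24 -0.20, Rab27a -0.0029, Rab33b -0.22, Rab38 -0.70, Rab3a -0.36, Rab40b -0.30, Rab40c -0.060, Rab5b -0.49 and Dennd5a -0.26. No called difference changed sign between the ductal populations.

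With the library number as a replicate block, 34 members were higher and 5 lower in hepatocyte-derived and 34 higher and 7 lower in cholangiocyte-derived ductal cells, and 4 higher and 9 lower between the ductal populations. For the first of these comparisons the pairing was not borne out (r = 0.0208 to 0.193 over 3 pairs, and 3 of 6 libraries correlated best with their own number), and the block lost the calls of Rab5a (0.20, limma adjusted p = 0.0615) and Rab5b (0.12, adjusted p = 0.182). Beside the changes given with the results, the block changed the call of Asgr2 between the ductal populations (0.94, limma adjusted p = 0.00611) and no other call of a gene examined. Depth limits Rab25, Rab27b and other genes near 0 in hepatocytes, where values are a few reads or none.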
